A study of Mus musculus with 18 samples.

Results

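The clustered protocadherin genes Pcdha, Pcdhb and Pcdhg were examined for called peaks of RAD21 and NIPBL in a mouse pro-B cell line. Members were the genes on chromosome 18 whose symbols start with Pcdha, Pcdhb or Pcdhg in GENCODE vM1 on mm9, which gave 25 of 37252 annotated genes. They comprised 2 Pcdha, 22 Pcdhb and 1 Pcdhg gene. In this annotation most alternative first exons of the Pcdha and Pcdhg families are transcripts of a single gene model each, named Pcdha11 and Pcdhgc5, so the Pcdha family had 11 distinct transcript starts and the Pcdhg family 10. The members ran from 37089939 to 38001527 on chromosome 18, a length of 912 kb, and 100 kb was added on each side.

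Clustered protocadherins are cell-surface adhesion proteins of the cadherin superfamily, best known in neurons, where each cell expresses its own combination of isoforms and recognises itself by it. Each Pcdhb gene is a single large coding exon with its own promoter, whereas Pcdha and Pcdhg variable exons are spliced to constant exons shared within the family. In neural cells, CTCF and cohesin bind at the promoters of most isoforms and at distal enhancers, and many of these promoters carry a conserved element with the letters CGCT. Cohesin is a ring-shaped complex that holds and extrudes DNA loops; RAD21 is its kleisin subunit, and NIPBL loads the ring and activates its ATPase. No letters of the locus are printed here.

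The line was transformed with v-Abl, and every group used here lacked RAG2 and the JH segments, carried the Emu-Bcl2 transgene and made dCas9, the catalytically dead Cas9. Control groups carried no further change (2 RAD21 and 2 NIPBL libraries). The block groups also expressed a guide RNA labelled Sg1-sgRNA (2 RAD21 and 2 NIPBL libraries). A further RAD21 experiment compared lines labelled Ig2b wild type (3 libraries), with the control genotype, and Ig2b-del/del (3 libraries). All were kept in 3 uM STI-571, an Abl inhibitor, for 4 days, and fixed in 1% formaldehyde. The labels do not say how many clones each genotype stands for, nor that replicates came from separate cultures, so each p-value measures only the spread between these libraries.

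The 14 lists held 44729 to 82688 RAD21 peaks and 63052 to 123391 NIPBL peaks, covering 0.438% to 1.3% and 0.77% to 1.13% of the genome. Read depth per library is unknown, so a missing peak says only that none was called. Peaks were also counted at marker genes: 9 of 10 pro-B markers had a RAD21 peak within 5 kb of their start in every RAD21 library and 10 of 10 a NIPBL peak in every NIPBL library, among them Pax5 and Ebf1. Of 9 neuron markers found, 1 had a RAD21 peak in every library and 7 had none in any, while 5 had a NIPBL peak in both controls and 1 had none in any NIPBL library. Of 6 T cell markers 0 had a RAD21 peak in every library and 3 had NIPBL in both controls. Of 6 fibroblast markers 3 had RAD21 in every library and 0 had NIPBL in both controls. Of all genes, 20.6% had RAD21 in every library and 45.4% in none. For NIPBL, 39.2% had it in every library and 43.8% in both controls. Some counts for other cell types thus stood above the share of all genes, so these peaks do not by themselves identify the cell type.

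RAD21 was nearly absent from the Pcdha genes and present at the Pcdhb and Pcdhg genes in all 10 RAD21 libraries, while NIPBL peaks lay over all 3 families. Over the Pcdha span (37089939 to 37347311), RAD21 had no peak in 8 of 10 libraries. The exceptions were replicate 1 of the dCas9 control, with 3 peaks covering 179 bp, and replicate 1 of the block, with 4 peaks covering 344 bp. Each of the 7 RAD21 regions found there was called in 1 library only. No RAD21 library had a peak in the interval between Pcdha and Pcdhb, and 8 of 10 had none in the 100 kb upstream of the cluster.

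**Figure D1:**
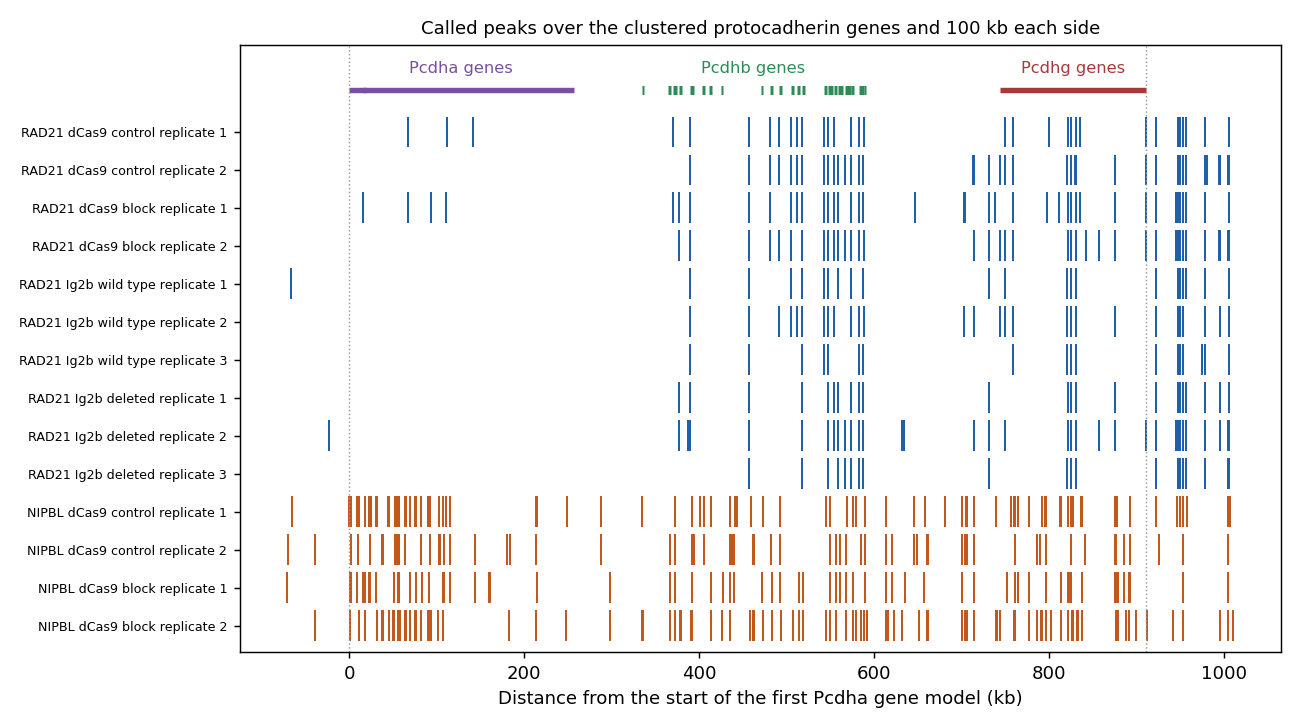
Called peaks of each library (rows) along the cluster, with distance from the start of the first Pcdha gene model in kb on the horizontal axis and gene models on top. RAD21 ticks (blue) are missing over the Pcdha genes in 8 of 10 libraries and recur at the same places over the Pcdhb and Pcdhg genes, whereas NIPBL ticks (orange) are spread over all 3 families.

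For each library, the covered share of a segment was divided by the covered share of the whole genome. In the Pcdhb span (37424652 to 37681073) this ratio for RAD21 had a lowest, median and highest value of 0.993, 1.45 and 1.7. In the Pcdhg span (37833989 to 38001527) it was 1.02, 1.32 and 1.81. The 100 kb downstream of the cluster, which hold the start of Diap1, a formin gene, stood at 3.41, 4.15 and 5.15. In every RAD21 library the downstream flank thus stood above each segment inside the cluster. The interval between Pcdhb and Pcdhg was low again, with a median of 0.304.

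NIPBL followed another order. Its ratio in the Pcdha span was 3.2 and 1.61 in the controls and 1.72 and 2.23 in the block libraries. Its lowest, median and highest values were 1.6, 2.38 and 2.73 in the Pcdhb span and 1.16, 2.53 and 2.84 in the Pcdhg span. In the upstream flank and in the interval between Pcdha and Pcdhb, no NIPBL library exceeded 0.248. NIPBL was therefore called over the Pcdha genes in 4 of 4 libraries where RAD21 was called in 2 of 10. Most single NIPBL regions there did not recur, however: of 71 in the Pcdha span, 45 were called in 1 library only and 3 in all 4.

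**Figure D2:**
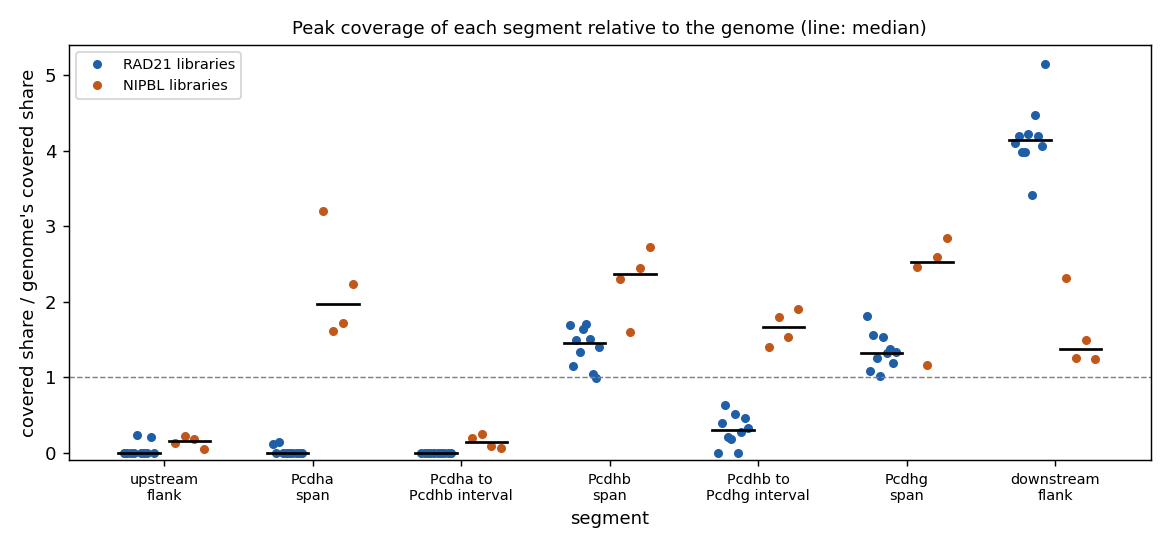
Covered share of each segment relative to that library's genome-wide covered share (vertical axis, ratio without unit), 1 point per library, with a line at the median of 10 RAD21 or 4 NIPBL libraries. The RAD21 median is 0 in the Pcdha span and 4.15 in the downstream flank.

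Most NIPBL peaks in the cluster were close to the calling threshold. Their median fold over background, the authors' value within each list, was 2.82 and 2.78 in the controls and 3.63 and 2.88 in the block libraries. From 2.91% to 22.1% of them reached a −log10 q of 3, against 11.1% to 35.3% of the whole lists. For RAD21, 38.1% to 76.9% of the cluster's peaks did. NIPBL peaks in the cluster had a median G+C content of 58.8% to 60.9% (library medians), against 52.8% to 59.6% on the rest of the chromosome. RAD21 peaks in the cluster had 40.3% to 43.6%, below the 44.8% to 46.8% elsewhere on the chromosome.

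At single members, RAD21 peaks were called mostly at Pcdhb genes, which make up 22 of the 25 members. Within 5 kb of the start, 13 of 25 members had a RAD21 peak in both dCas9 controls, against 29.8% of all annotated genes, and all 13 were Pcdhb genes. Within 1 kb it was 12 of 25 members, against 12.6% of all genes. Pcdhb14, Pcdhb15, Pcdhb16, Pcdhb21 and Pcdhb22 had a peak within 5 kb in all 10 RAD21 libraries. These 5 were 20% of the members, near the 20.6% of all genes. Pcdha11, Pcdhb1, Pcdhb2, Pcdhb6, Pcdhb7, Pcdhb8 and Pcdhb9 had none in any RAD21 library, as 45.4% of all genes did. In both block libraries 13 members had a RAD21 peak (all genes 35.4%), in the 3 Ig2b wild type libraries 7 (24%) and in the 3 deleted ones 8 (27.5%). Pcdhb6 to Pcdhb9 are neighbours, so the upstream part of the Pcdhb array held an unbroken row of 4 genes without RAD21 within 5 kb. At a −log10 q of at least 3 the count of 13 in both controls fell to 8.

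Within 1 kb, 18 of 25 members had a RAD21 peak in at least 1 library, against 37% of all genes. In all 10 libraries it was 3 members, Pcdhb14, Pcdhb16 and Pcdhb22, against 7.96%. At Pcdhb14, 228 and 443 bp were covered in the controls, 191 and 308 bp in the block libraries, 226, 202 and 255 bp in the Ig2b wild type and 199, 254 and 179 bp in the deleted line. Apart from the high control replicate 2 and block replicate 2, the libraries lay close together and the groups overlapped. At Pcdhb16, the covered length was 290 and 387 bp in the controls, 282 and 739 bp in the block libraries, 379, 373 and 214 bp in the wild type and 192, 222 and 204 bp in the deleted line.

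Pcdhb5, upstream of the row without RAD21, had a peak within 1 kb in 9 of 10 libraries, all but replicate 3 of the deleted line. Pcdhb20, annotated as a pseudogene, and Pcdhb21 also had one in 9 of 10. Pcdhb15, Pcdhb17 and Pcdhb18 had one in 7, and Pcdhb12 in 6. Pcdhb3 had a peak in 2 libraries, and Pcdhb4, Pcdhb10, Pcdhb11, Pcdhb13 and Pcdhb19 in 4 each. Pcdhgc5 had one in 3 and Pcdha3 in 1.

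Counted by distinct transcript start, which resolves the alternative first exons, Pcdha again had no start with RAD21 in all 10 libraries. A RAD21 peak within 5 kb in all 10 libraries was found at 0 of 11 Pcdha, 6 of 26 Pcdhb and 2 of 10 Pcdhg transcript starts, against 23.8% of all transcript starts, so the Pcdhb and Pcdhg shares were both near the genome share. Within 1 kb it was 0, 4 and 1, against 9.07%. For NIPBL the count within 5 kb in all 4 libraries was 8 of 11 Pcdha, 8 of 26 Pcdhb and 5 of 10 Pcdhg starts, against 48.3%.

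**Figure D3:**
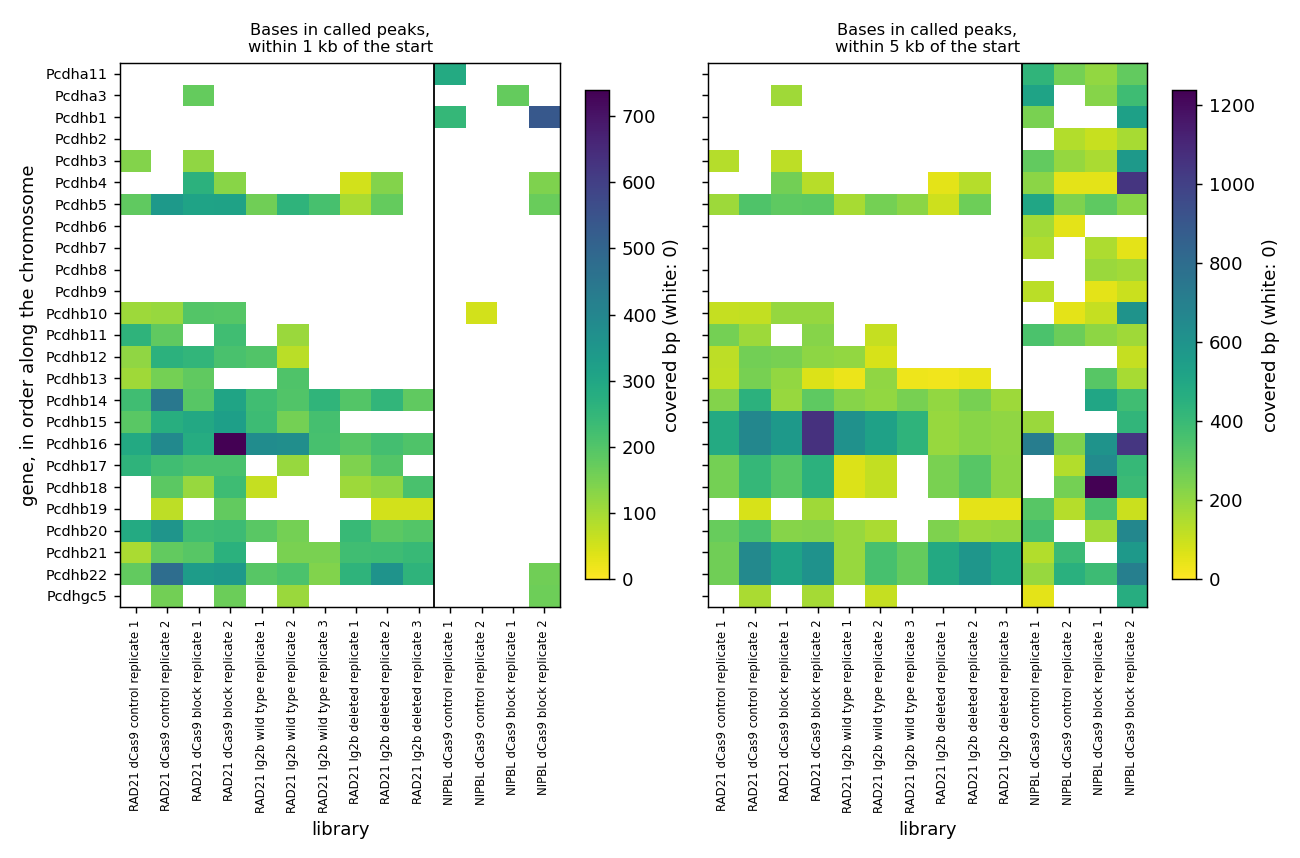
Bases inside called peaks within 1 kb (left) and 5 kb (right) of each member's start, members in chromosome order (rows) by library (columns, RAD21 left and NIPBL right of the black line), with white for 0 bp. RAD21 is within 1 kb of Pcdhb14, Pcdhb16 and Pcdhb22 in all 10 libraries, and Pcdhb6 to Pcdhb9 are white for RAD21 in every library.

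NIPBL was called within 5 kb of every member in at least 1 library, and within 1 kb of 8 of 25. In both controls 10 of 25 members had a NIPBL peak within 5 kb, against 43.8% of all genes, and no member lacked one in all 4 libraries, against 29.7%. In both block libraries it was 19 members (all genes 45.1%) and in all 4 libraries 8 (39.2%). Within 1 kb, 0 of 25 members had a NIPBL peak in both controls, against 33.6% of all genes, and 0 in all 4 libraries, against 31.3%. The 8 members with one in at least 1 library were 5 Pcdhb genes, both Pcdha genes and Pcdhgc5, against 52.8% of all genes. Among distinct transcript starts, 2 of 11 Pcdha (Pcdha11-202 and Pcdha11-210), 3 of 10 Pcdhg (Pcdhgc5-204, Pcdhgc5-206 and Pcdhgc5-208) and 0 of 26 Pcdhb had a NIPBL peak within 1 kb in 4 of 4 libraries. The count of 10 depended on weak peaks: at a −log10 q of at least 3 it was 0, and with all NIPBL lists cut to the length of the shortest it was 2. At Pcdhb16, 715 and 237 bp within 5 kb were covered in the controls, then 600 and 1041 bp with the guide.

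The positions of the 2 proteins within Pcdhb genes did not coincide. Over the 22 Pcdhb starts, 107 RAD21 peaks from 10 libraries had their midpoints at a median of −65 bp, with quartiles of −80 and −40 bp, where negative values lie upstream of the start. In each library, 90.9% to 100% of them were within 500 bp of the start, whereas over all protein-coding starts the libraries gave 19% to 36.9%. The 70 NIPBL peaks from 4 libraries had a median midpoint of 1841 bp downstream, with quartiles of 1685 and 1963 bp. From 78.6% to 100% of them lay 500 to 3000 bp downstream, against 20.6% to 23.6% over all protein-coding starts. None of the 18 RAD21 regions in the Pcdhb span overlapped a NIPBL peak.

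Base composition ran in parallel with the NIPBL position. In bins of 100 bp averaged over the 22 genes, G+C was 43.6% in the bin just upstream of the start and reached 61.8% in the bin from 1900 to 2000 bp, inside the coding exon. NIPBL peaks covered 40.9% of the gene and library pairs in the bin from 1700 to 1800 bp and 0% in the bin just upstream of the start, where RAD21 covered 47.3%. Pcdhb exons are paralogs: in the 6 NIPBL regions of the Pcdhb span called in all 4 libraries, a median of 14.9% of 50-base words occurred more than once in the cluster and its flanks. In the 4 RAD21 regions called in all 10 libraries the median was 0%. The treatment of reads that map to several places is not given in the sources used here, and the part of composition or repeats in the NIPBL positions was not tested.

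**Figure D4:**
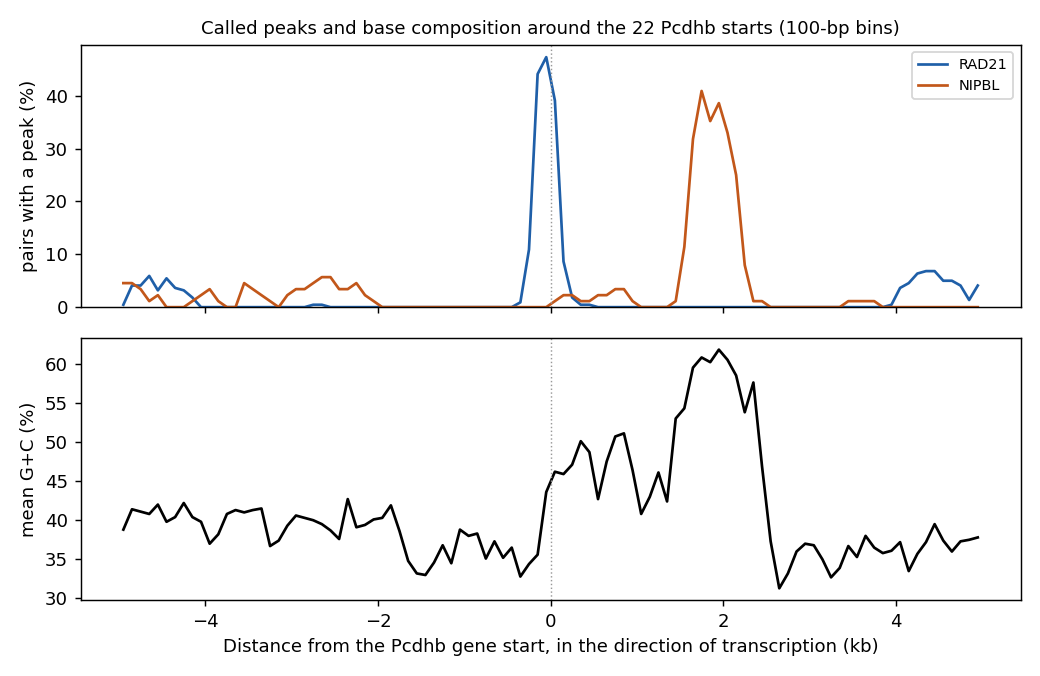
Upper panel, percentage of gene and library pairs with a called peak in each 100-bp bin from 5 kb upstream to 5 kb downstream of the 22 Pcdhb starts, for RAD21 (10 libraries) and NIPBL (4 libraries). Lower panel, mean G+C of the same bins. RAD21 is highest in the bin just upstream of the start at 47.3% and NIPBL in the bin from 1700 to 1800 bp at 40.9%.

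Outside the Pcdhb starts, RAD21 regions called in all 10 libraries stood at a few further places. One was intergenic, chr18:37546903-37547537, between Pcdhb8 and Pcdhb9, with 178 and 190 bp covered in the controls. In the Pcdhg span there were 3. The first, chr18:37911021-37911378, lay within the Pcdhgc5 model outside its exons. The next, chr18:37915148-37915529, touched a Pcdhgc5 exon with its midpoint 88 bp upstream of a transcript start (Pcdhgc5-204). The last, chr18:37920821-37921831, again outside exons, had 559 and 916 bp covered in the controls, then 681 and 783 bp with the guide. The downstream flank held 6 such regions, 1 of them at the start of Diap1, where all 4 NIPBL libraries also had a peak.

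NIPBL peaks called in all 4 libraries at a start were few. At Pcdhgc5-208, a Pcdhg transcript start, the region chr18:37965614-37967115 was called in 4 of 4 NIPBL libraries and overlapped RAD21 peaks of 6 libraries. Taf7, a gene for a subunit of the general transcription factor TFIID that lies between the Pcdhb and Pcdhg genes, had a NIPBL peak at its start in 4 of 4 libraries with authors' folds of 7.14 and 5.34 in the controls and 12 and 8.47 in the block libraries. These were the highest folds of the cluster in each of the 4 lists. Of the 9 other gene starts in the cluster and flanks, Taf7, Gm10545, Gm16882 and Diap1 had NIPBL within 5 kb in 4 of 4 libraries, and only Diap1 had RAD21 in all 10.

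Matches to the 11-base CTCF core consensus, searched on both strands, did not carry RAD21 within the cluster. Of 26 matches in the cluster, 0 lay in RAD21 peaks of both controls and 1 lay in a peak of any RAD21 library. Of 31746 matches genome-wide, 27.3% lay in RAD21 peaks of both controls, 20.7% in those of all 10 libraries and 35.1% in any. No match in the cluster lay in peaks of all 10. In the downstream flank 2 of 4 did in both controls. Most of the 14 matches in the Pcdhb span lay far downstream of a start, for example 2387 bp downstream at Pcdhb14 and 2428 bp at Pcdhb16, and none overlapped RAD21. In the bin from 2300 to 2400 bp downstream, 10 of the 22 Pcdhb starts had a match. These matches lie at similar positions in paralogous exons. They are not independent sites, which the comparison with the genome share does not take into account.

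In the window from 250 bp before to 50 bp after the start, no Pcdhb gene held the 11-base core, against 0.808% of all gene starts that did. With 1 mismatch allowed, 2 of 22 Pcdhb starts and 10.2% of all starts held it. The 4 letters CGCT, on either strand, were in 22 of 22 Pcdhb windows, against 57.1% of all starts. All 6 Pcdhb windows without a RAD21 peak within 1 kb held them too, as did all 16 with one. A match is only a run of letters.

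Expression of the dCas9 guide was compared with control over the cluster and at each member. With the flanks, RAD21 peaks covered 0.637% and 1.12% in control libraries and 0.951% and 1.06% with the guide. The means were 0.879% ± 0.343 and 1.01% ± 0.0769 (SD, n = 2 each), the groups overlapped, and the exact two-sided permutation p was 1, where 2 against 2 cannot go below 1 in 3. The peak names split the RAD21 dCas9 lists into replicates 1 and replicates 2, and within these the differences were 0.314 and −0.0614 percentage points. NIPBL covered 1.77% and 1.08% in the controls and 1.33% and 2.21% in the block libraries. Here too the groups overlapped (exact permutation p = 0.667, n = 2 each).

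In limma's moderated test of covered length within 5 kb of starts, none of 7520 windows was called for RAD21 and none of 11178 for NIPBL at an adjusted p under 0.05 (percent called 0 in both). At an unadjusted p under 0.05 there were 0 and 1584. Without a replicate term, the RAD21 fit counted the difference between replicates 1 and 2 as noise. With that term, 156 of the 7520 RAD21 windows had an unadjusted p under 0.05, and again none was called. Of the members, 4 and 1 passed the filter on low values, and none was called. Without the filter, 18 and 25 members were tested and again 0 were called. For RAD21, 0 members had an unadjusted p under 0.05, against 0.098% of all windows. For NIPBL, 4 members had an unadjusted p under 0.05, against 9.21% of all windows.

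A gene was counted as gaining a peak where 2 of 2 block libraries and 0 of 2 controls had one, and as losing it in the opposite case. Shares are of the genes able to change, those without a peak in either control for a gain and those with one in both for a loss. For RAD21 within 5 kb, 1 of 9 such members gained a peak, Pcdhb4, against 0.75% of all such genes. It had 0 and 0 bp in the controls, then 263 and 131 bp with the guide. The Pcdhb4 peaks had folds of 3.29 and 3.65 in block replicates 1 and 2, where the lowest of the lists were 2.99 and 3.24. A loss was found at 0 of 13 members, against 0.343%. For NIPBL, 3 of 4 members gained a peak (Pcdhb8, Pcdhb13 and Pcdhb14, but not Pcdhb12), against 4.34%, and 1 of 10 lost one (Pcdhb6), against 2.88%. The Pcdhb13 peaks, centred 1747 and 1583 bp past its start in block replicates 1 and 2, also lay in the Pcdhb14 window. Pcdhb14 also had peaks of its own, centred 1834 and 1823 bp past its start and outside the Pcdhb13 window. The covered length in the Pcdhb14 window thus counts the peaks of both genes. The peaks nearest Pcdhb13 and Pcdhb14 had folds of 3.36 and 3.45 in block replicate 1, where the lowest of the list was 3.36. In block replicate 2 the folds were 2.76 and 2.69, with a lowest of 2.69. At Pcdhb14, NIPBL covered 0 and 0 bp in the controls, then 505 and 378 bp with the guide, a difference of 0.91 on the scale of log2(bp + 500) (SE 0.14, limma adjusted p = 0.528 without the filter). Within 1 kb, Pcdhb4 was again the 1 member of 9 to gain RAD21 (genes able to, 0.307%) and 0 of 12 lost it (0.428%), while none of the 22 members without NIPBL in either control gained it (2.6%). No member had NIPBL within 1 kb in both controls, so none could lose it. Covered length within 1 kb was higher with the guide, without overlap between groups, at 4 members for RAD21 (Pcdhb4, Pcdhb10, Pcdhb15 and Pcdhb21; all genes 1.4%). It was lower at Pcdhb17 and Pcdhb20 (0.464%).

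The Ig2b-deleted line was compared with its wild type for RAD21. Over the cluster and flanks, peaks covered 0.518%, 0.576% and 0.416% in the wild type and 0.595%, 0.815% and 0.465% in the deleted line. The groups overlapped, with an exact permutation p of 0.4 (n = 3 each), where the smallest possible is 0.1. Within the downstream flank the covered share was higher in the deleted line without overlap (means 3.03% and 2.07%, exact permutation p = 0.1). Divided by the covered share of the genome, the groups overlapped there (means 4.47 and 4.03). The deleted lists were on the whole larger: the median log2 difference over the 3762 windows tested was 0.34. None of these windows was called (percent called 0), and 418 had an unadjusted p under 0.05. No member passed the filter. Without it 15 members were tested and 0 called, with 6 at an unadjusted p under 0.05, against 7.87% of all windows. These 6 were 3 neighbouring pairs whose windows held the same peaks: Pcdhb15 and Pcdhb16 at −0.53 on the scale of log2(bp + 500), Pcdhb17 and Pcdhb18 at 0.45, and Pcdhb21 and Pcdhb22 at 0.40. They thus stood for 3 separate values of both signs.

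Within 5 kb of the start 0 of 12 members able to gain a RAD21 peak did so, and 0 of 7 lost one, against 0.87% and 0.145% of all such genes. Windows of neighbouring Pcdhb genes can share peaks, however, since those of starts less than 10 kb apart overlap. The median gap between neighbouring Pcdhb starts was 7674 bp, and 6 members have another member's start within 5 kb. At Pcdhb13, for example, 9 RAD21 libraries had a peak within 5 kb but 4 within 1 kb. The comparison was therefore repeated within 1 kb, a setting chosen after the data had been seen. Of 5 members with a RAD21 peak in all 3 wild type libraries, 1 then lost it, Pcdhb15, against 8 of 3932 such genes (0.203%). None of 12 gained one (0.631%). RAD21 covered 232, 154 and 219 bp within 1 kb of the Pcdhb15 start in the wild type and 0 bp in each of the 3 deleted libraries. The dCas9 controls had 190 and 275 bp and the block libraries 293 and 321 bp there, so 7 of 7 other libraries had the peak; per the peak names, the dCas9 lists were called against a control library and the Ig2b lists name none. The difference between the means was 202 bp (exact permutation p = 0.1, the smallest possible). The Pcdhb15 peaks of wild type replicates 1, 2 and 3 had folds of 3.57, 6.46 and 4.98. The lowest folds of these lists were 3.27, 3.22 and 3.34.

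The next start, Pcdhb16, 4222 bp further on, kept a called peak in all 3 deleted libraries. Its means were 322 ± 93.6 bp in the wild type and 206 ± 15.1 bp in the deleted line (SD, n = 3 each, exact permutation p = 0.2). At the far end of the array the order was the opposite. Pcdhb22 had 191, 208 and 140 bp in the wild type and 259, 360 and 259 bp in the deleted line. Pcdhb21 had 0, 150 and 150 bp against 228, 229 and 240 bp.

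Over all 25 members within 1 kb, the deleted libraries lay above the wild type without overlap at 3 (Pcdhb18, Pcdhb21 and Pcdhb22), against 3.06% of all genes. They lay below without overlap at 1 (Pcdhb15), against 0.105%. In the Pcdhb span as a whole the covered share was 0.842% ± 0.163 in the wild type and 0.765% ± 0.162 in the deleted line (SD, n = 3 each, exact permutation p = 0.7). Divided by the covered share of the genome it was 1.64, 1.7 and 1.51 in the wild type and 1.05, 0.993 and 1.4 in the deleted line. On this scale the deleted libraries lay below the wild type without overlap, with means of 1.14 and 1.62. The division may not remove the effect of list length. In the RAD21 dCas9 controls the ratio was 1.69 with 0.601% of the genome covered and 1.15 with 1.3%. The difference between the lines on this scale was not tested, and no such share was computed over the rest of the genome. For block against control, NIPBL ratios also did not overlap in the Pcdhb span (means 2.59 and 1.95) and Pcdhg span (2.72 and 1.81). The same held for NIPBL between Pcdha and Pcdhb (0.072 and 0.225) and RAD21 in the downstream flank (3.99 and 4.15). Between Pcdha and Pcdhb the NIPBL ratio rested on 1 peak per library, covering 133 and 157 bp in the controls and 51 bp in each block library. Ratios of the other segments overlapped. Since each genotype may be a single clone, the deletion and other differences between the lines cannot be told apart.

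**Figure D5:**
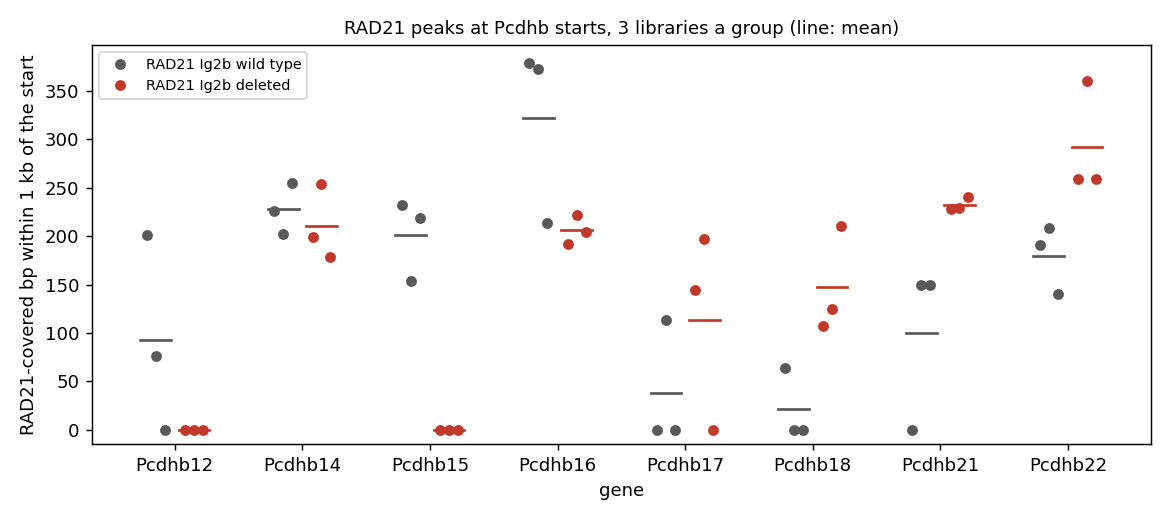
RAD21-covered bases within 1 kb of the start (vertical axis, bp) of 8 Pcdhb genes in the 3 Ig2b wild type (grey) and 3 Ig2b deleted (red) libraries, with a line at each mean; the 8 genes were chosen after their values were seen. At Pcdhb15 the wild type lies between 154 and 232 bp and the deleted line at 0 bp, while at Pcdhb18, Pcdhb21 and Pcdhb22 the deleted line lies above the wild type.

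Related genes outside the cluster were read in the same way. Of 13 non-clustered protocadherin and related genes, 7 had a RAD21 peak within 5 kb in both controls (all genes 29.8%) and 8 a NIPBL peak (43.8%). Pcdh1, Pcdh9, Pcdh12, Pcdh17, Pcdh19 and Pcdh20 had a RAD21 peak in all 10 libraries (all genes 20.6%), and Pcdh7, Pcdh8, Pcdh10, Pcdh15, Pcdh18 and Cdhr1 in none (45.4%). At Pcdh9, RAD21 covered from 1233 to 4607 bp with a median of 2516 bp.

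Of 12 regulators of the cluster, 5 had a RAD21 peak and 11 a NIPBL peak in both controls (all genes 29.8% and 43.8%). Ctcf itself had both in every library, and Dnmt3b, a DNA methyltransferase gene, had NIPBL in 4 of 4 libraries and RAD21 in none. Of 8 genes for intracellular partners of clustered protocadherins, such as the kinase genes Ptk2b and Fyn, 4 had a RAD21 peak and 7 a NIPBL peak in both controls, against the same shares of all genes.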

How the data were processed

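RAD21 and NIPBL ChIP-seq peak lists of 14 libraries were used. The 4 inputs were not used here. Per the submitters' processing notes, the authors used mm9, Bowtie2 2.2.8, SAMtools 1.8 and MACS2, whose version and settings are not given in the sources used here. The lists were called per library. The authors' deposited values per peak are a fold enrichment (a ratio), a −log10 p, a −log10 q and a score, which was not used. Folds were not compared between lists, and lists were not normalized to each other, so longer lists cover more.

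Genes came from GENCODE vM1 (chromosomes 1 to 19 and X). Any overlap of at least 1 bp counted as a peak. Covered bp counts each base under called peaks once. Windows of 5 kb each side of starts with a mean of at least 500 bp were tested as log2(bp + 500) with limma 3.58.1 in R 4.3.3 (Benjamini-Hochberg, adjusted p under 0.05), a procedure tested on simulated data. Single values had exact two-sided permutation tests. Python 3.11.15, numpy 2.4.6 and matplotlib 3.10.9 were used. Alternatives were list length, q, windows, filters, quantile normalization, the replicate block and leaving out each library.

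Named genes were members with peaks, first and last members, other starts in the region and examples of the related lists. Members and lists were chosen with earlier results of these data known.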

Additional observations from a re-analysis of the deposited data

How the results depend on the processing

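The block against control differences in coverage of the cluster and its flanks changed sign when single libraries were left out, and the deleted against wild type difference did not. Block against control for RAD21 was 0.126 percentage points, and ranged from −0.116 (without control replicate 1) to 0.369. For NIPBL it was 0.345, and ranged from −0.0943 (without block replicate 2) to 0.785. Deleted against wild type was 0.122, and ranged from 0.0269 to 0.202. The other settings kept these signs.

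Calls of gene start windows were 0 in each comparison, and 0 when any library was left out (a group of 1 was assumed to vary like the other). At a −log10 q of at least 3, 38 windows were called for NIPBL and 26 for deleted against wild type, and with lists of equal length 1 for the latter. None of these was a member, and no member passed the filter in those settings.

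Members with a RAD21 peak in both controls numbered 13, 8 at a −log10 q of at least 3, and 14 to 15 in single controls. For NIPBL the count was 10, with 0 within 1 kb, 19 within 10 kb, 0 at a −log10 q of at least 3, 2 with lists of equal length, and 14 (without control replicate 1) to 17 (without control replicate 2) in single controls. CTCF cores in RAD21 peaks of both controls stayed at 0 in every setting run.

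Replicate numbers were not taken to pair libraries. Deviations of same-numbered libraries correlated at 0.785 for RAD21 and −0.0566 for NIPBL. With 2 libraries a group, the 2 pairs give the same value by construction. For the Ig2b libraries the correlations were 0.0331, 0.178 and 0.219, where each library correlated best with its own number. With the replicate block, coverage differences were 0.126, 0.345 and 0.122 and calls 0. For deleted against wild type, 1073 of 3762 windows had an unadjusted limma p under 0.05 with the block and 418 without it. The replicate block without the filter, added after seeing the data, called 6 windows for RAD21, no member among them.

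Peak lists carry no read depth, so peaks just under the threshold in 1 library cannot be told from absent ones.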
